A study of Mus musculus with 49 samples.

Results

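Transcripts of 32 genes that hepatocytes are known for were followed in the urinary bladder, in female mice of the C57Bl/J strain. They form a list of liver-made plasma proteins and liver enzymes, in which no threshold on measured values was used. The list was chosen with earlier results of these data known, so its contrasts with all genes are descriptive. Of the 32 genes, 31 had a probe set that the platform annotation gives to a single gene, and Gc, the vitamin D binding protein, had none. All 31 passed a filter on dim genes, out of 14624 genes that passed it on the array. Where a gene had several probe sets, as 7 members did, the one of highest mean stood for it.

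Arsenate, the pentavalent inorganic form of arsenic, was given in the drinking water at 0, 0.5, 2, 10 or 50 ppm. Exposure lasted 1 week, with mice aged 76 days at the end, or 12 weeks, with mice aged 155 days. The mice were killed with carbon dioxide and bled by cardiac puncture. Each of the 10 groups held 5 mice, except 0.5 ppm at 1 week with 4, and each array carried unpooled RNA of 1 bladder kept in RNAlater. In the study plan, liver stands among the tissues of the 1-week harvest but not among those of the 12-week harvest, although the closing sentence of that plan names liver without a time. Within each group the labels begin with 1 common number of unstated meaning, so dose and this number cannot be told apart, nor can harvest, age and exposure time. Nothing else in the labels marks a batch, and p-values measure the spread between these mice.

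Hepatocytes make most plasma proteins: albumin, transport proteins, apolipoproteins, clotting factors and protease inhibitors. They also hold cytochromes P450 and the enzymes that dispose of amino acids and ammonia. Many of these genes depend on the transcription factor HNF1, whose palindromic site contains the letters GTTAAT. Several of the genes are not confined to liver: fat tissue is known to express Rbp4, Hp and Cyp2e1, and Ttr is also made outside the liver.

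Promoter sequences (250 bases before to 50 after the start, RefSeq, GRCm38.p6) were found for 26 of the 32 genes. The letters GTTAAT stood on either strand in 9 of these 26 promoters (34.6%) and in 8.24% of the promoters of all 27025 genes with a sequence. Of the 7 genes whose level fell at 50 ppm after 1 week, 5 held these letters, and their stretches are printed here. The promoter of Cyp2d10 did not hold them, and Plg had no promoter sequence here. Each lies before the start site and runs 5′ to 3′ along the gene's strand, with these letters, or their reverse complement, in capitals. The match is a description of the letters and does not show binding.
Alb: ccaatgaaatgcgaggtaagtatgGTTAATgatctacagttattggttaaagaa
Serpina1b: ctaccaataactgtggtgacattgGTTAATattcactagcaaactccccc
Serpina1c: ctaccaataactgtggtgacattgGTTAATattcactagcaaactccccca
Fga: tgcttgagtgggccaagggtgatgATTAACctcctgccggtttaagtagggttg
Fabp1: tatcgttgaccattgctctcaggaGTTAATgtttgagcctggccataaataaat
The Alb stretch is chr5:90460814-90460867 on the plus strand, and the letters begin 32 bases before the start. The stretches of Serpina1b (chr12:103738190-103738239) and Serpina1c (chr12:103904951-103905001), both on the minus strand, were identical over all 50 bases compared. Their bases before the start, compared without gaps at the best shift, were identical at 162 of 249. These 2 genes are members of the alpha-1 antitrypsin cluster, and their probe sets may share signal. The Fga stretch is chr3:83026086-83026139 and the Fabp1 stretch chr6:71199748-71199801, both on the plus strand.

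Signals are given as log2(signal + 16), a scale with a floor of 4, on which changes of dim genes are understated. A gene is called, and said to have risen or fallen, at an adjusted p under 0.05 from limma, with Benjamini-Hochberg adjustment over all genes tested. The urothelial list averaged 13.21 to 13.84 on every array and the bladder smooth muscle list 12.36 to 13.28, so both defining tissues of the bladder were measured throughout. In such bulk samples, fewer cells of a type and less RNA per cell cannot be told apart.

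Alb, the gene of albumin, varied over a wide range between mice. Its raw signal was 5943 on the brightest array and 16.54 on the dimmest, a ratio of 359. At 1 week the highest and lowest array differed 135-fold, and at 12 weeks 9.86-fold. The spread of Alb within groups (SD 0.905) lay at percentile 99.59 of all genes tested, whose median was 0.258.

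After 1 week, Alb measured 7.79, 9.26, 10.46, 10.32 and 11.42 in the 5 water mice. It measured 9.23, 9.50, 8.01 and 7.82 at 0.5 ppm. At 2 ppm the values were 8.17, 9.48, 12.54, 9.48 and 9.33, so 1 mouse, replicate 3, stood far above the others. At 10 ppm they were 8.20, 7.59, 9.03, 7.98 and 8.85. At 50 ppm they were 6.49, 7.93, 7.87, 5.91 and 6.62, and 2 of these overlapped the lowest water mouse. The group means were 9.85 ± 1.38 in water (SD, n = 5) and 6.96 ± 0.90 at 50 ppm (SD, n = 5).

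After 12 weeks every group was low. Alb measured 6.19, 6.51, 7.49, 5.02 and 6.22 in water, and 7.28, 6.65, 7.01, 6.54 and 5.84 at 0.5 ppm. It measured 6.36, 6.93, 5.94, 6.69 and 5.45 at 2 ppm. The values were 6.26, 7.20, 6.89, 6.49 and 6.46 at 10 ppm, and 6.65, 6.41, 6.72, 5.74 and 6.34 at 50 ppm. All 5 dose groups overlapped at this harvest, and the water groups of the 2 harvests did not overlap.

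**Figure D1:**
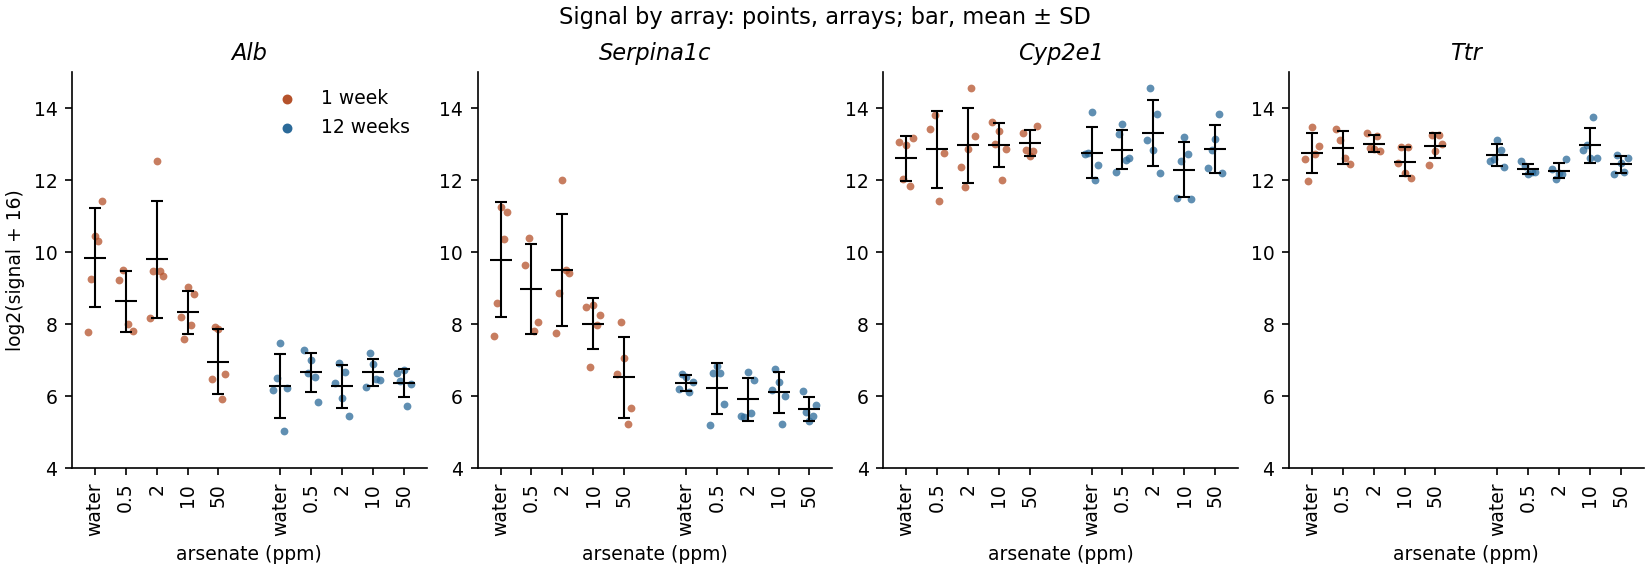
Signal of Alb, Serpina1c, Cyp2e1 and Ttr on each array as log2(signal + 16), by arsenate dose (ppm) and harvest. Points are arrays and bars are group means ± SD. Alb and Serpina1c are high at 1 week up to 10 ppm, and Alb is lower but still scattered at 50 ppm (SD 0.90). Cyp2e1 (11.41 to 14.56) and Ttr (11.98 to 13.77) stay high in every group.

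Exact two-sided permutation tests were made for Alb alone, 9 in all with adjustment over them. The water groups of the 2 harvests gave an exact p of 0.00794, which is the smallest these group sizes allow, with an adjusted p of 0.0714. The 50 ppm group against water at 1 week gave an exact p of 0.0238 (adjusted 0.107). The other doses against water at 1 week gave exact p of 0.198 at 0.5 ppm, 0.984 at 2 ppm and 0.0635 at 10 ppm. At 12 weeks the exact p ranged from 0.437 to 0.984 over the 4 doses. No Alb test passed after adjustment with all arrays. The smallest possible p adjusts to 0.0714 when 1 test alone reaches it, so the lack of a pass does not show that Alb was unchanged. Without water replicate 1, the lowest 1-week water mouse, the 10 ppm, 50 ppm and water-group tests each reached an adjusted p of 0.0238 by the same exact test. These tests passed together, at the smallest possible p, and share the same remaining 1-week water mice. Leaving out this mouse made each difference larger. Each of these tests failed to pass in 9 of 10 fits without 1 array, with adjusted p up to 0.381, 0.143 and 0.107 in the same order.

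Between harvests in mice on plain water, 20 of 31 members were called and all 20 were lower at 12 weeks. Over all genes, 13.4% were called in this comparison. The median difference of the members was -1.61, against 0.02 over all genes. For 12 members the groups did not overlap, which held for 9.53% of all genes.

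Among plasma transport proteins, Alb fell by 3.56 ± 0.53 (SE, adjusted p = 1.2e-05, limma) from 1 to 12 weeks in water. Hpx, hemopexin, which binds heme, measured 6.53, 6.58, 9.05, 8.37 and 8.96 at 1 week and 5.47, 6.40, 5.18, 4.49 and 5.82 at 12 weeks, and fell by 2.42 ± 0.46. Fabp1, the liver fatty acid binding protein, measured 7.06, 7.00, 10.40, 9.54 and 9.79 against 5.47, 6.67, 6.10, 6.64 and 6.32, and fell by 2.52 ± 0.52, while its other probe set differed by -0.85 ± 0.42 and was not called. Ambp, the precursor of alpha-1-microglobulin and bikunin, fell by 1.715 ± 0.39. For Hpx and Fabp1 every 12-week value lay below every 1-week value, and the same 3 water mice, replicates 3 to 5, were the highest at 1 week.

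Of the apolipoproteins, Apoa1, the main protein of high-density lipoprotein, measured 6.55, 6.91, 9.39, 8.74 and 9.21 in 1-week water mice and 6.23, 5.23, 4.86, 6.35 and 4.70 in 12-week water mice. It fell by 2.69 ± 0.53. Apoc4 measured 4.90, 6.86, 7.88, 7.51 and 8.20 against 4.77, 4.37, 5.38, 4.90 and 4.51 and fell by 2.285 ± 0.53, with water replicate 1 already near the floor at 1 week. Apoa2 fell by 2.005 ± 0.38 and Apoc3, an inhibitor of lipoprotein lipase, fell by 1.51 ± 0.38. Apoh, beta-2-glycoprotein I, depended on the probe set: the brighter one differed by 0.46 ± 0.27 and was not called, and the other by -1.81 ± 0.47 and was called (adjusted p = 0.00684, limma).

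In coagulation and fibrinolysis, Fga, the fibrinogen alpha chain, measured 6.82, 7.40, 9.85, 8.86 and 9.18 at 1 week against 5.90, 5.24, 5.99, 5.79 and 5.12, and fell by 2.81 ± 0.45. Plg, plasminogen, measured 6.09, 6.67, 7.88, 7.53 and 8.26 against 4.62, 4.47, 4.67, 4.34 and 4.79 and fell by 2.705 ± 0.43. All 12-week Plg values in water lay under 5, within 1 unit of the floor. The other fibrinogen chains, Fgg (-1.61) and Fgb (-1.36), and the thrombin inhibitor Serpinc1 (-1.13) were also called. On every 12-week array Fga, Fgb, Fgg and Plg lay under 6.077, the lowest threshold of the filter on dim genes. They passed it through 1-week arrays alone, so passing is not independent of their harvest difference. With no filter, 20 of 31 members were likewise called in water. F2, prothrombin, at -0.35, Kng1, kininogen, at -0.89 and Vtn, vitronectin, at -0.81 were not.

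Of the protease inhibitors, Serpina1b, of the antitrypsin cluster, had the largest difference of all members. It measured 6.84, 8.21, 9.83, 8.76 and 9.83 at 1 week and 4.26, 4.76, 5.07, 4.51 and 5.03 at 12 weeks, and fell by 3.96 ± 0.58 (adjusted p = 9.68e-06, limma). Serpina1c measured 7.67, 8.58, 11.26, 10.36 and 11.12 against 6.19, 6.62, 6.54, 6.11 and 6.39 and fell by 3.43 ± 0.57. Neither gene overlapped between the harvests. Itih4, an inter-alpha-trypsin inhibitor heavy chain, fell by 1.60 ± 0.41.

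Of the cytochromes P450, which oxidize drugs and steroids, Cyp3a11 measured 6.26, 6.91, 9.77, 8.74 and 9.64 against 6.07, 4.99, 4.89, 5.21 and 5.99. It fell by 2.835 ± 0.53, and Cyp2d10 fell by 1.95 ± 0.37. Cyp2c29 (-0.43) and Cyp2e1 (0.15) were not called.

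In nitrogen metabolism, Cps1, which starts the urea cycle, measured 5.13, 6.78, 8.63, 7.76 and 8.46 against 4.31, 5.70, 5.30, 4.74 and 6.12 and fell by 2.12 ± 0.49. Gnmt, a methyltransferase that uses S-adenosylmethionine, measured 4.65, 6.57, 8.02, 7.26 and 8.02 against 4.34, 6.23, 4.68, 4.54 and 4.47 and fell by 2.05 ± 0.54. The harvests overlapped for both genes through water replicate 1 at 1 week. Tat, tyrosine aminotransferase, was not called at -0.55.

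The harvest difference was tested in each dose group. At 0.5 ppm 12 members were called, all lower at 12 weeks, with 9.52% of all genes called, and 7 and 6 without 1-week replicate 2 or 3. At 2 ppm 19 were called lower (8.06% of all genes), led by Serpina1c at -3.60 and Alb at -3.53, and 13 without 2 ppm replicate 3. At 10 ppm 7 were called lower (10.8%): Fga at -1.87, Itih4, Serpina1c, Ambp, Serpina1b, Alb and Cyp3a11. At 50 ppm 2 were called lower (19.5%): Itih4 at -1.45 and Rbp4, the retinol binding protein, at -0.71. The median member difference was -1.09, -1.44, -0.65 and -0.28 over these 4 doses. With RNA integrity as a covariate the count was 0 at 2 ppm, where the median was -0.705, and 0 at 10 ppm, where it was -0.198. The 2 ppm group at 1 week held 3 RNAs of integrity 7.2, and at 10 ppm that fit drops the 2 arrays of 1 week without an integrity number. The 10 ppm count was 3 without replicate 1 of either harvest and 2 without 12-week replicate 4 or 1-week replicate 3. The 50 ppm count was 1 without any of 12-week replicates 1, 2, 4 and 5 or 1-week replicates 2 and 3.

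**Figure D2:**
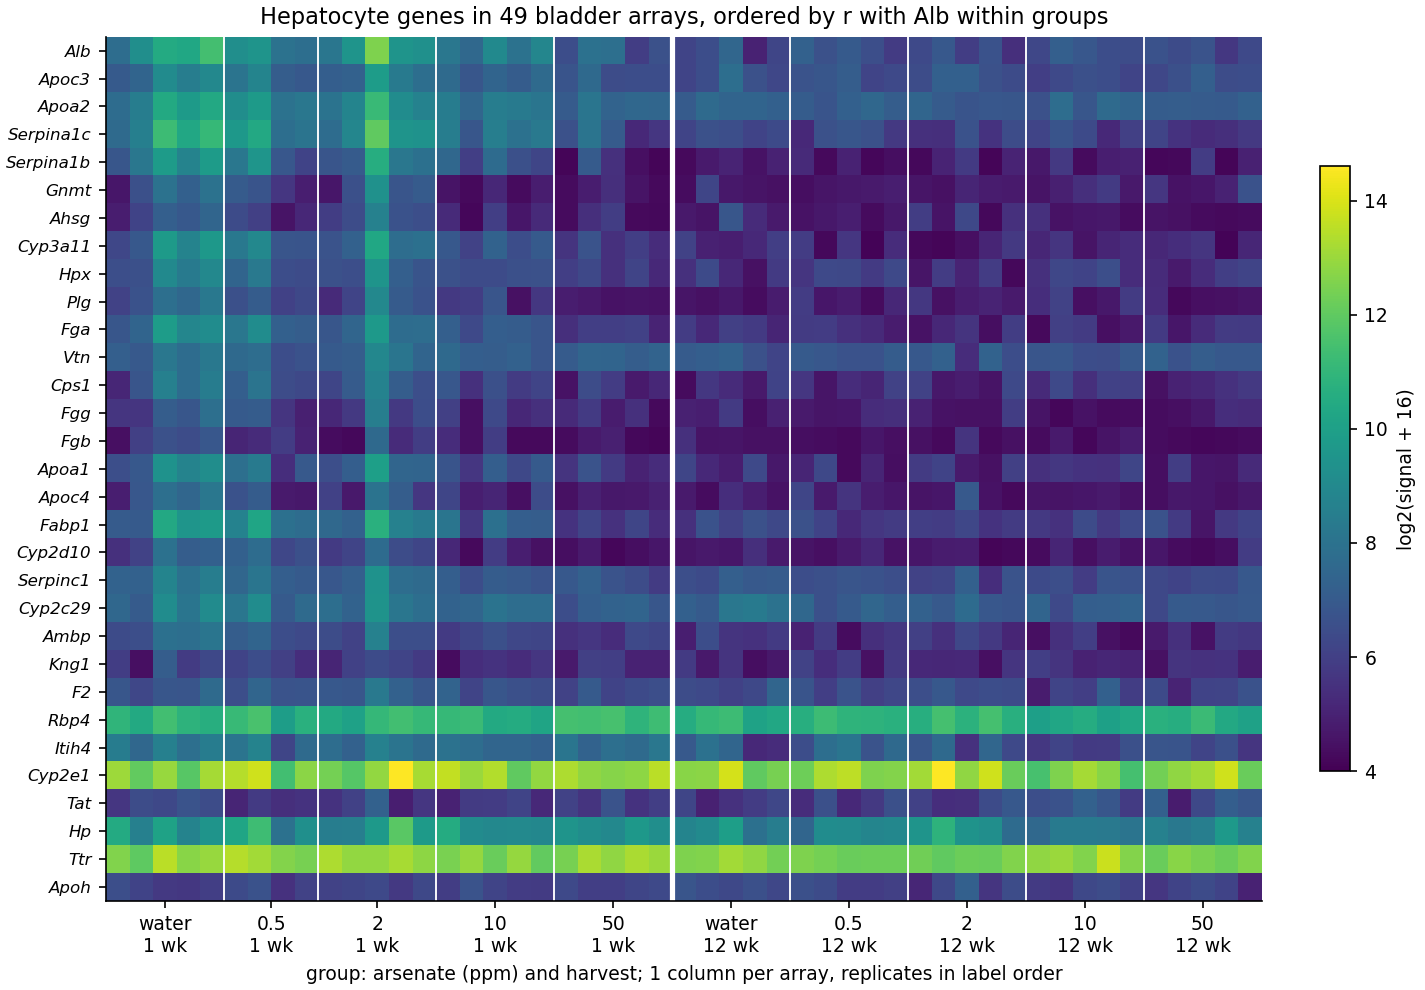
Heat map of 31 hepatocyte genes (rows, ordered by their correlation with Alb) on 49 arrays (columns, by group), coloured by log2(signal + 16). Most rows brighten together on the same 1-week columns, among them 2 ppm replicate 3, and are dark at 50 ppm and at 12 weeks; Rbp4, Cyp2e1, Hp and Ttr are bright throughout.

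Against water at 1 week, 50 ppm arsenate went with lower levels of secreted and metabolic liver genes. Of 31 members 7 were called and all 7 fell, with 0.335% of all genes called. The difference was negative in 27 of 31 members, with a median of -1.59 against 0.01 over all genes. For 6 members the groups did not overlap, which held for 2.52% of all genes. All 4 dose comparisons of a harvest share the same water arrays.

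The largest of the 7 was Serpina1b, at 4.16, 7.05, 5.47, 4.42 and 4.14 in the 50 ppm mice, which fell by 3.64 ± 0.69 (adjusted p = 0.0108, limma). Serpina1c, at 6.62, 8.07, 7.05, 5.23 and 5.66, fell by 3.27 ± 0.69. For both genes 50 ppm replicate 2 overlapped the water mice.

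Fabp1, at 5.54, 6.16, 5.50, 6.24 and 5.36, fell by 2.995 ± 0.63, and Alb fell by 2.885 ± 0.62 (adjusted p = 0.0304, limma). Fga, at 5.41, 5.98, 5.97, 6.06 and 5.04, fell by 2.73 ± 0.49. Plg, at 4.87, 4.75, 4.50, 4.54 and 4.51, fell by 2.65 ± 0.48, and Cyp2d10, at 4.38, 4.78, 4.19, 4.39 and 4.65, fell by 2.30 ± 0.41. The other probe set of Fabp1 differed by -1.33 ± 0.46 and was not called (adjusted p = 0.158, limma), nor was that of Serpina1b at -2.94 ± 0.83 (adjusted p = 0.0683). Fabp1, Fga, Plg and Cyp2d10 did not overlap with water, and Plg and Cyp2d10 lay under 5 on every 50 ppm array.

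Members not called included Apoa1 at -2.46 (adjusted p = 0.0627, limma), Hpx at -2.07, Cyp3a11 at -2.45 and Apoa2 at -1.84. The 4 members with positive differences were Rbp4 (0.45 ± 0.26), Cyp2e1 (0.41 ± 0.41), Ttr (0.20 ± 0.22) and Apoh (0.14 ± 0.23), and none was called. The sign turned with the other probe set for Apoh (-1.39 ± 0.485) and for Vtn, at -0.40 with the brighter and 0.29 with the other, again without a call. The next probe set of Apoa1 was called at -3.31 ± 0.69. Cyp2d10, Fga, Plg and Serpina1b kept their call in all 10 fits that left out 1 array of either group. On every 50 ppm array of 1 week Cyp2d10, Fga and Plg lay under 6.077, the lowest threshold of the filter on dim genes. They passed it through other arrays, so passing is not independent of this difference. With no filter, 7 of 31 members were likewise called. Alb and Serpina1c lost it in 7 of the 10 and Fabp1 in 6. The number called was 4 without water replicate 3, 4 or 5 or 50 ppm replicate 1 or 5, and 15 without water replicate 1. With array weights it was 16, and with Alb as a covariate 0.

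**Figure D3:**
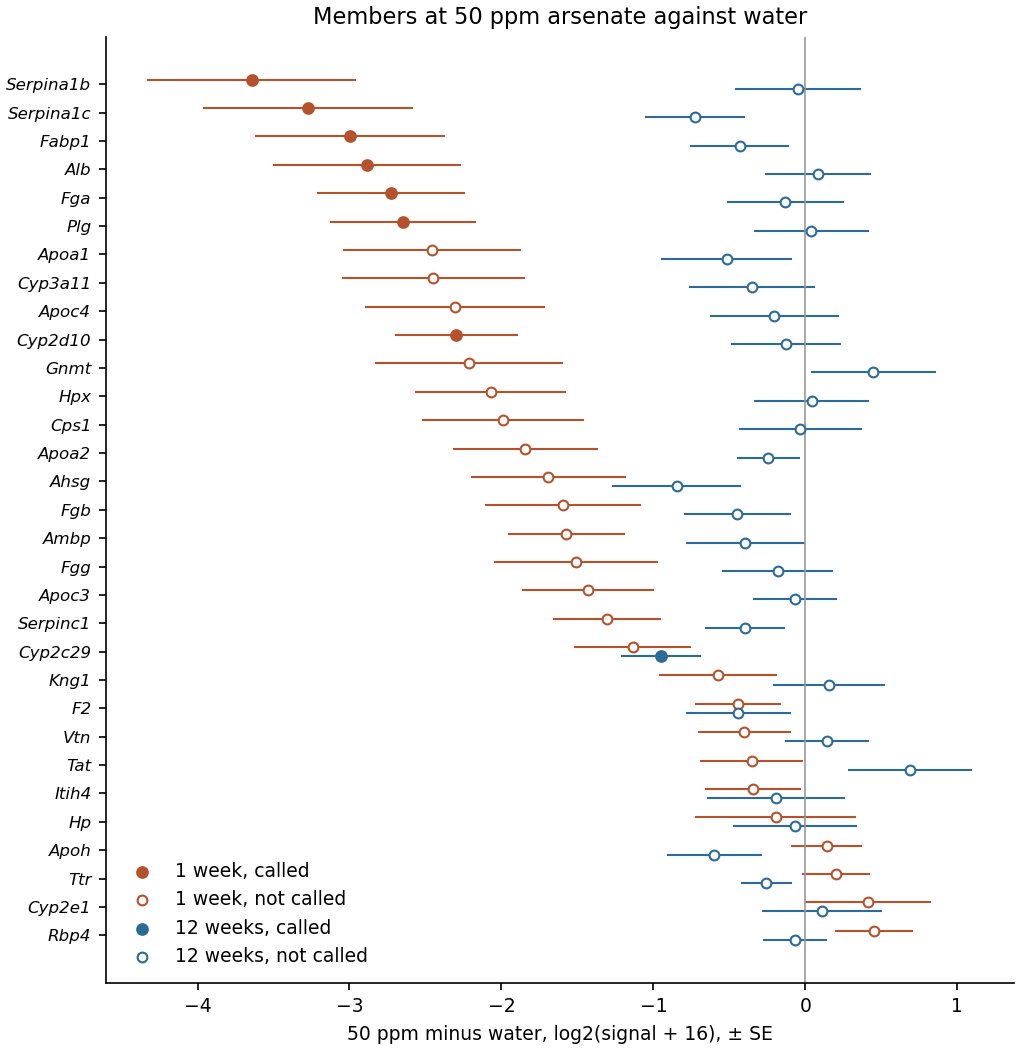
Difference of 50 ppm from water in log2(signal + 16) with its standard error for 31 members, at 1 week and 12 weeks; filled points are called. At 1 week 27 members lie left of 0, down to -3.64 for Serpina1b, while at 12 weeks Cyp2c29 (-0.95) is the single filled point.

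At lower doses after 1 week few members passed. At 10 ppm 1 member was called (0.78% of all genes): Cyp2d10, at 5.17, 4.28, 5.88, 4.91 and 4.48, fell by 1.84 ± 0.41. This call held in 4 of 10 fits without 1 array: it was lost without water replicate 3, 4 or 5 or 10 ppm replicate 2, 4 or 5. Without water replicate 1, 3 members were called, and with array weights 11. All 10 ppm values of Cyp2d10 also lay under 6.077, and with no filter 1 member was likewise called. The difference at 10 ppm was negative in 29 of 31 members, with a median of -1.16. At 0.5 ppm no member was called by limma, 1 (Tat, -0.86) had an unadjusted p under 0.05, and 0.0479% of all genes were called. At 2 ppm none was called and 0 had an unadjusted p under 0.05, with 0% of all genes called. The medians at these doses were -0.52 and -0.24.

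Over dose ranks, the 1-week trend called 7 members, all falling (0.267% of all genes). They were Cyp2d10 (-0.65 per dose step), Fga, Plg, Serpina1b, Fabp1, Serpina1c and Ambp. Leaving out water replicate 1, or 2 ppm replicate 3, raised the count to 15. It dropped to 4 when water replicate 5 was left out, and to 3 when water replicate 3 or 50 ppm replicate 1, 3 or 5 was. Without the water mice, the trend over the 4 arsenate doses called 3 (0.0547% of all genes): Cyp2d10 at -0.90 per step, Fabp1 at -1.02 and Fga at -0.79. This count was 1 without 0.5 ppm replicate 2 or 3 or 50 ppm replicate 1, 3, 4 or 5. The number of members above the 40th percentile of their array followed the same course. It was 20 to 30 in water, 19 to 28 at 0.5 ppm, 21 to 31 at 2 ppm, 17 to 23 at 10 ppm and 12 to 18 at 50 ppm, against 9 to 18 over all 12-week arrays.

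After 12 weeks the dose comparisons showed little in these genes. At 50 ppm 1 member was called, with 4.06% of all genes called: Cyp2c29, at 6.29, 7.01, 6.96, 6.82 and 6.96 against 7.26, 6.98, 8.21, 8.34 and 7.99 in water, fell by 0.95 ± 0.26. It kept this call in 3 of 10 fits without 1 array, and lost it without water replicate 3, 4 or 5 or 50 ppm replicate 1, 2, 4 or 5. The 12-week trend called Cyp2c29 (-0.20 per dose step) as 1 of 31 members, with 5.26% of all genes called, and lost the call in 10 of 25 fits without 1 array: water replicate 3, 4 or 5, 0.5 ppm replicate 4, 10 ppm replicate 2 or 3, or 50 ppm replicate 1, 2, 4 or 5. The trend without water called none of the members by limma (3.58% of all genes), and 2 had an unadjusted p under 0.05. At 0.5, 2 and 10 ppm 0 members were called by limma, with 0.527%, 0.0137% and 0.335% of all genes called, and 2, 2 and 3 members had an unadjusted p under 0.05. Ttr at -0.39 and -0.43 had the smallest p of the members at 0.5 and 2 ppm, and Cyp2c29 at -0.67 at 10 ppm.

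The dose effects of the 2 harvests were then compared directly over all 49 arrays. For 50 ppm 9 members were called, and in all 9 the difference of 50 ppm from water was higher (less negative, or above 0) at 12 weeks than at 1 week. Over all genes, 7.36% were called. They were Serpina1b (difference 3.60 ± 0.82), Alb, Plg, Gnmt, Fga, Fabp1, Serpina1c, Cyp2d10 and Hpx (2.11 ± 0.64). The count was 15 without 1-week water replicate 1 and 5 without 1-week water replicate 3 or 5. For 10 ppm Plg alone was called (2.255 ± 0.61, adjusted p = 0.0464, limma), with 1.37% of all genes called, and kept its call in 5 of 20 fits without 1 array. For 0.5 and 2 ppm no member was called by limma (4.61% and 0% of all genes), and 4 and 1 had an unadjusted p under 0.05.

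The members were then related to Alb within groups, as deviations of each array from its group mean. Each member was fitted on Alb beside a mean per group, with all genes in the fit. Of 30 members 17 were called, all with a positive slope, against 0.171% of all genes, which is 25 genes in all. The median r of the members was 0.61, against -0.01 over all genes. An r of at least 0.5 was found for 20 of the 30 members and for 0.28% of all genes. All these relations share the Alb values of the same 49 arrays.

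The closest followers were Apoc3 (r = 0.80, Spearman's rho = 0.69), Apoa2 (0.78, rho 0.61), Serpina1c (0.77, rho 0.64), Serpina1b (0.75, rho 0.66) and Gnmt (0.72, rho 0.56). Per unit of Alb, Serpina1c changed by 0.82 ± 0.11 and Apoc3 by 0.56 ± 0.07 on the log2 scale, where 1 would be an equal fold change. The lowest r were those of Apoh (-0.13), Ttr (0.08), Hp (0.18), Tat (0.18) and Cyp2e1 (0.27).

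The 2 harvests are given side by side, without a test of their difference. At 1 week the median r was 0.79, and 21 members were called in a fit of that harvest alone, against 0.233% of all genes. Ahsg (fetuin-A) reached r = 0.94, Serpina1c 0.93 and Gnmt 0.93. At 12 weeks the median r was 0.02, and limma called 0 members and 0 genes. The first principal component held 75.2% of the members' variation within groups at 1 week and 21.2% at 12 weeks. At 12 weeks Alb ran from 5.02 to 7.49, against 5.91 to 12.54 at 1 week, and 9 to 18 members per array lay above the 40th percentile.

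The 2 arrays farthest from their group in Alb were 2 ppm replicate 3 (2.74 above) and water replicate 1 (2.06 below), both at 1 week. Without them the median r was 0.45, with 0.70 for Apoc3 and 0.66 for Serpina1c, and 1 member was called. Without 2 ppm replicate 3 alone 4 were called, and without the 5 water arrays of 1 week 5.

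**Figure D4:**
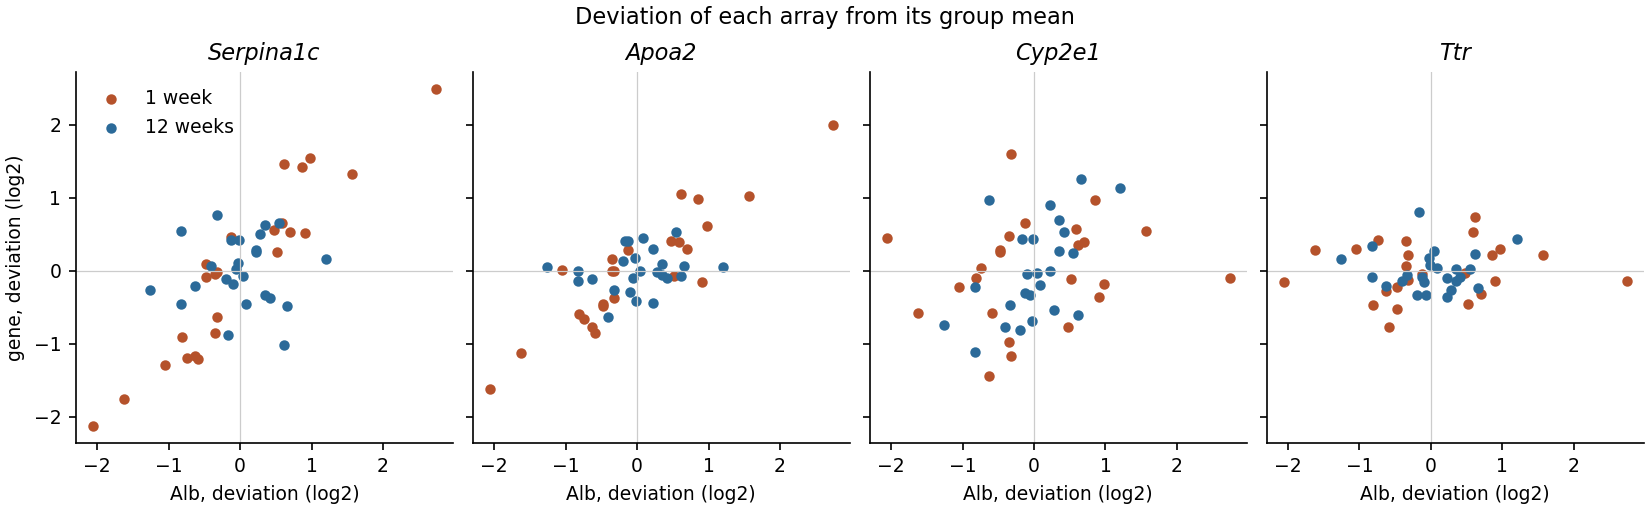
Deviation of Serpina1c, Apoa2, Cyp2e1 and Ttr from the group mean against that of Alb (both log2) on 49 arrays, coloured by harvest. At 1 week Serpina1c and Apoa2 follow Alb (r = 0.93 and 0.90), with 2 ppm replicate 3 at the upper right; Cyp2e1 (0.15) and Ttr (0.11) do not line up with it.

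The 15 genes outside the list with the highest r with Alb were Bhmt (0.71), Hamp (0.67), Rgn (0.62), Cyp2c37 (0.61), Mug1, Mup3, Hpd, Slc27a5, Apoa5, Podn, Cyp2c50, H2-Q10, Cyp2c70, Ces1c and Crp (0.54). Bhmt, betaine-homocysteine methyltransferase, and Hamp, the iron hormone hepcidin, were both called. In a wider list of 96 hepatocyte genes, 59 were tested, 53 had a positive slope on Alb and 6 were called, with a median r of 0.21. At 50 ppm after 1 week, 47 of these 59 were lower, with a median of -0.35 and 0 called by limma (19 with an unadjusted p under 0.05).

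For 4 members not called on Alb, namely Cyp2e1, Hp (haptoglobin, which binds free hemoglobin), Rbp4 and Itih4, the level followed adipocyte genes. The adipocyte mean was taken over 12 of 14 listed genes, among them Adipoq, Plin1, Cidec and Lep, none of them a member. This relation was chosen after the values were seen. Fitted in the same way, it called these 4 of 31 members, all positive, with 1.67% of all genes called positive. Within groups Cyp2e1 had r = 0.91 (rho 0.89), Hp 0.84 (rho 0.76), Rbp4 0.78 (rho 0.77) and Itih4 0.68 (rho 0.67). An r of at least 0.5 was found for 1.78% of all genes.

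The relation to adipocyte genes held at both harvests. For Cyp2e1 r was 0.88 at 1 week and 0.94 at 12 weeks, for Hp 0.87 and 0.85, for Rbp4 0.85 and 0.73, and for Itih4 0.69 and 0.68. All 4 were called at each harvest alone and also without the 2 arrays of most extreme adipocyte mean. Per unit of the adipocyte mean, Cyp2e1 changed by 1.26 ± 0.09 and Hp by 1.35 ± 0.13. With Alb and the adipocyte mean in 1 fit, 18 members were called on Alb, and none of these 4 was among them.

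Alb had an r of -0.05 with the adipocyte mean at 1 week and was not called. At 12 weeks, where Alb was low, its r was 0.65 (adjusted p = 0.128, limma) and not called. The adipocyte mean spread within groups by an SD of 0.54, and ran from 9.86 to 11.90 at 1 week and from 9.72 to 11.92 at 12 weeks. At 50 ppm after 1 week all 12 adipocyte genes had a positive difference from water, with a median of 0.32, and 0 were called by limma (1 with an unadjusted p under 0.05).

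**Figure D5:**
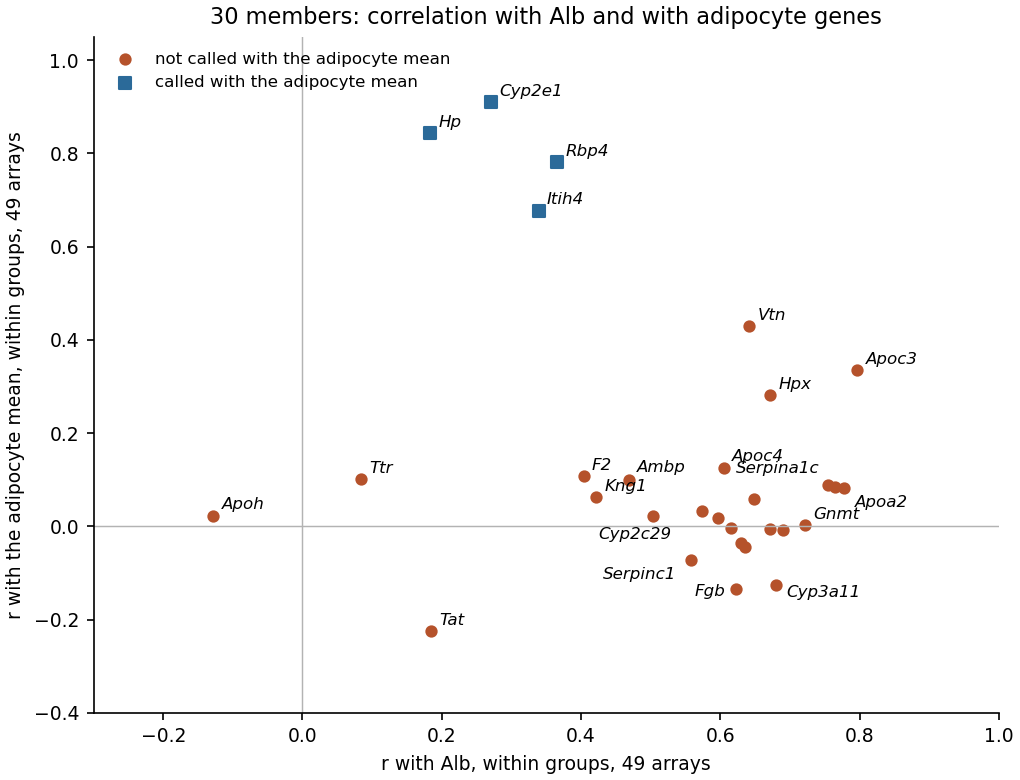
Within-group correlation of 30 members with Alb (horizontal) and with the mean of 12 adipocyte genes (vertical) over 49 arrays. Cyp2e1, Hp, Rbp4 and Itih4 (squares) lie at 0.68 to 0.91 on the vertical axis, while most others lie near 0 on it and between 0.40 and 0.80 on the horizontal axis.

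Levels of Cyp2e1, Rbp4 and Hp across groups differed from those of Alb. Cyp2e1 averaged 12.61 ± 0.62 in water and 13.03 ± 0.36 at 50 ppm after 1 week (SD, n = 5 each), and 12.77 ± 0.70 in water after 12 weeks. Rbp4 averaged 10.86 ± 0.37, 11.31 ± 0.26 and 10.68 ± 0.50 in the same 3 groups, and Hp 9.49 ± 0.81, 9.29 ± 0.27 and 8.83 ± 0.75. For these 3 genes the groups overlapped. Itih4 was unlike them in water, where it was called lower at 12 weeks, as Alb was. Both kept that call in all 10 fits without 1 array. At 50 ppm, however, Rbp4 was called lower at 12 weeks as well as Itih4. There Rbp4 kept its call in 3 of 10 fits without 1 array, and Itih4 in all 10.

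Ttr, transthyretin, a carrier of thyroid hormone, followed neither measure (r = 0.08 with Alb, 0.10 with the adipocyte mean). It stayed between 11.98 and 13.77 on every array. Between harvests at 2 ppm Ttr was among the 19 members called lower at 12 weeks. Ttr kept that call in 9 of 10 fits without 1 array, with differences of -0.84 to -0.68. Its 4 probe sets had r of -0.13 to 0.15 with Alb. Apoh depended on the probe set: the brighter one had r = -0.13 with Alb and the other 0.59, and 0.82 at 1 week. Fabp1 (0.60 and 0.51), Serpina1b (0.75 and 0.75), Kng1 (0.42 and 0.53) and Vtn (0.64 and 0.45) had both r values positive, and Apoa1 0.62 to 0.80 from its 4.

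Markers of other cell types were read beside these results. No gene was called on Alb in any of the lists for Kupffer cells (5 tested of 7), liver sinusoidal and stellate cells (10 of 12), kidney (15 of 18), lung (9 of 13), pancreas (6 of 16), intestine (5 of 14), adipocytes (12 of 14), blood cells (7 of 13), mesothelium (6 of 6), urothelium (14 of 14) and smooth muscle (13 of 14). The same held for 9 acute phase, 7 periportal, 7 pericentral, 3 female-predominant, 6 male-predominant and 3 fetal liver genes. Members were left out of all these lists, so liver genes of these kinds that are members were not counted here. Of the 30 members, 17 were called on Alb. Over all genes 0.171% were called with a positive slope on Alb, so lists this short would mostly hold no call. The lack of calls therefore does not show whether these genes follow Alb. Median r over these lists ran from -0.30 for the fetal liver genes to 0.28 for the female-predominant ones. In the harvest comparison, where the called members were lower at 12 weeks, the kidney list was higher. In water 14 of 15 kidney genes had a higher mean at 12 weeks, with a median of 0.70. By limma 0 were called (13.4% of all genes), and 5 had an unadjusted p under 0.05. Called higher were 9 of 15 at 0.5 ppm (median 1.45, 9.52% of all genes called) and 0 at 2 ppm (8.06%). At 10 ppm 6 were called higher (10.8%) and at 50 ppm 2 (19.5%). In water and at 2 and 50 ppm these counts were not above the share of all genes. The kidney mean per array ran from 5.45 to 7.40 at 1 week and from 5.83 to 8.20 at 12 weeks.

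Some bladder and lining genes were also called between harvests, with a direction that varied by dose. In water, where 13.4% of all genes were called, 5 of 13 smooth muscle genes fell and 2 of 14 urothelial genes rose. Of 6 mesothelial genes 2 rose and 1 fell, and 2 of 10 sinusoidal and stellate genes fell. The urothelial count is close to the share of all genes. At 0.5 ppm (9.52% of all genes), beside the 12 members called, 9 of 14 urothelial and 3 of 6 mesothelial genes fell. There, 2 of 13 smooth muscle genes rose. At 50 ppm against water after 1 week (0.335% of all genes) 1 of 6 mesothelial genes fell, and none of the other lists named here had a call by limma. The part of liver tissue, or of RNA from it, in the levels of the members was not tested, nor was that of these other lists.

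Alb was set against 5 measures of RNA and array quality within groups, with permutation p adjusted over the 5. For the RNA integrity number r was -0.38 (p = 0.151, adjusted 0.383) over 47 arrays, and Spearman's rho was -0.17 (permutation p = 0.321). Without the 2 most extreme arrays r was -0.20. The 2 ppm group at 1 week held 3 RNAs of integrity 7.2, including replicate 3, where Alb was highest, and replicates 4 and 5, where it was not. The mean of the tested members was 9.48, 8.05 and 7.78 in these replicates 3 to 5. It was 7.10 and 7.35 in replicates 1 and 2, of integrity 9.7 and 9.5. In 1-week water the lowest integrity, 8.8, went with the highest member mean, 8.95. The highest integrity there, 9.7 in replicate 1, went with the lowest mean, 7.11. At 10 ppm the lowest of 3 known integrity numbers, 8.4, went with the highest mean of the group, 7.44. At 0.5 ppm the highest integrity, 9.5, went with the highest, 8.57. At 50 ppm the lowest integrity, 9.1, went with 6.44, and the highest mean, 7.05, had an integrity of 9.4. The relation of the member mean to integrity was not tested. The absorbance purity ratio (-0.18), absorbance itself (-0.08), poly-A controls (-0.20) and hybridization controls (0.12) gave adjusted permutation p of 0.383 to 0.761. For the purity ratio r was -0.39 without its 2 most extreme arrays (permutation p = 0.0379, not adjusted).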

How the data were processed

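Bladder RNA from 49 mice (Trizol, then a Qiagen method) was measured on 1-colour Affymetrix Mouse430_2 arrays. The authors deposited 1 linear intensity per probe set and array. The submitters' processing notes name GCOS 1.0, and its settings are not named in the labels or headers used. Each array had a 2% trimmed mean of 500.003 to 500.004. Of 45101 probe sets, 34945 had a single gene, 932 several and 9160 none in the platform annotation.

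Values were used as log2(value + 16), without further scaling. Genes above the 40th percentile of the array on at least 4 arrays were tested. Fits used limma 3.58.1 (lmFit, eBayes with trend) in R 4.3.3, separately for 24 arrays at 1 week and 25 at 12 weeks, or over all 49 for harvest differences and covariation. Permutation tests ran in Python 3.11.15, with 100000 within-group resamples for correlations. The number of arrays limits precision. Scripts were tested on simulated data. Alternatives were the offset, quantile normalization, the filter, array weights, RNA integrity or Alb as covariate, a replicate block, other probe sets and leaving out arrays; the fit on the adipocyte mean was chosen after seeing the data.

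The members and lists were chosen with earlier results of these data known. Named are the 12 members of largest change among those called in the comparison with most calls, called members elsewhere or else those of smallest p, the 5 highest and lowest r, and the top 15 non-members. Replicate numbers showed no pairing (median r between same-numbered arrays -0.000916 at 1 week and 0.00497 at 12 weeks).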

Additional observations from a re-analysis of the deposited data

Results flagged for a closer look

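Single mice stood far from the rest of their group in 6 of 150 group and measure combinations checked by the gap of the extreme value, where chance alone flags about 1 in 20. In 2 ppm replicate 3 at 1 week Apoa1 was 9.99 against 6.54 to 7.455 in the other mice, and Hpx 9.48 against 6.55 to 7.21. Hp was 10.54 in 10 ppm replicate 1 at 1 week (others 8.91 to 9.10) and 7.46 in 0.5 ppm replicate 1 at 12 weeks (others 8.82 to 9.15). Cyp2d10 was 5.90 in 50 ppm replicate 5 (others 4.24 to 4.63) and 5.41 in water replicate 4 (others 4.61 to 4.75), both at 12 weeks.

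The effect of 50 ppm differed between the harvests, by limma's test of that difference, for Plg (2.69), Serpina1b (3.60), Cyp2d10 (2.17), Fga (2.60), Alb (2.97), Gnmt (2.66), Fabp1 (2.56), Hpx (2.11) and Serpina1c (2.55), each as the 12-week minus the 1-week difference from water on the log2 scale. For 10 ppm it differed for Plg (2.255).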

How the results depend on the processing

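Counts are members called by limma. The direction of the water-group and 50 ppm differences of the called members was kept under other offsets, filters, normalization and weights. With Alb as a covariate, counts fell to 0 for 50 ppm at 1 week, 10 ppm at 1 week, both 1-week trends, the 12-week trend, the harvest comparison in water and at 2 ppm, and the harvest differences at 10 and 50 ppm. They fell to 2 at 0.5 ppm and to 1 each at 10 and 50 ppm for the harvest comparison. That fit removes what is shared with Alb by construction. It also turned the sign between harvests in water for Apoc3 (0.49), Fgb (0.26), Fgg (0.25), Gnmt (0.47) and Serpinc1 (0.041), and at 2 ppm for Ahsg (0.50), Apoc3 (0.69), Cps1 (0.19), Fgg (0.38), Gnmt (0.36) and Vtn (0.21).

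For 50 ppm at 1 week (7 called), array weights gave 16, all arrays in 1 fit 14 and the next probe set 12. Offset 1 gave 8, offset 64 gave 6 and the filter at the 60th percentile 5. For 10 ppm at 1 week (1 called), the filter at the 60th percentile gave 0, array weights 11, RNA integrity as covariate 5 and 1 fit 2. For 50 ppm at 12 weeks (1 called), no filter, RNA integrity and 1 fit each gave 0. The 1-week trend (7 called) gave 14 with RNA integrity, 13 with the next probe set, 10 with array weights and 8 with offset 1. It gave 6 with offset 64 and with the 60th percentile, and 5 without a filter. The 12-week trend gave 0 without a filter. The trends without water gave 1 with offset 64 at 1 week and 1 with array weights at 12 weeks. The harvest comparison gave 0 with RNA integrity at 2 ppm and at 10 ppm, where offset 64 gave 2. The harvest difference at 10 ppm (1 called) gave 0 with offsets 1 and 64 and with the 60th percentile, 3 with weights and 2 with RNA integrity, and that at 0.5 ppm 1 with weights. The cause of these changes was not tested.

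For covariation with Alb (17 called), offset 1 gave 7, the 60th percentile 11, RNA integrity 9, 12 weeks alone 0, no 1-week water arrays 5 and no 2 farthest arrays 1. The Alb difference of 2 ppm from water at 12 weeks was 0.030 with offset 1 and -0.01 with offset 16, and r of Alb with the purity ratio was -0.392 without 2 arrays.

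With the replicate number as a block, which showed no pairing, 14 members were called for 50 ppm and 2 for 10 ppm at 1 week, 11 for the 1-week trend and 10 for covariation.

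Leaving out 1 array at a time gave 4 to 15 members for 50 ppm and 0 to 3 for 10 ppm at 1 week, and 0 to 1 for 50 ppm at 12 weeks. It gave 3 to 15 for the 1-week trend, 0 to 1 for the 12-week trend, and 1 to 3 and 0 to 1 for the trends without water. The harvest comparison gave 18 to 22 in water, 6 to 15 at 0.5 ppm, 13 to 22 at 2 ppm, 2 to 8 at 10 ppm and 1 to 2 at 50 ppm, and the harvest difference 0 to 3 at 10 ppm and 5 to 15 at 50 ppm. Covariation gave 4 to 20. The Alb difference ranged from -2.032 to -1.125 for 10 ppm, -3.40 to -2.492 for 50 ppm and -0.7305 to 0.3618 for 2 ppm at 1 week, from -4.077 to -3.169 between the water groups, and from -0.3278 to 0.2874 for 2 ppm and -0.2305 to 0.3847 for 50 ppm at 12 weeks. Members near the floor of 4 limit what can be seen at 50 ppm and at 12 weeks. Other Alb probe sets could not be tried, since Alb has 1.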
